A study of Homo sapiens with 6 samples.

Results

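The microRNA processing and Argonaute genes are the 10 genes DROSHA, DGCR8, XPO5, DICER1, TARBP2, AGO1, AGO2, AGO3, AGO4 and TNRC6A, chosen by name as the core of the pathway that makes and uses microRNAs. Each had exactly 1 array row with its symbol alone, so 10 of the 18417 singly named genes are described. RNA of 6 cultures of RD18, an established line of embryonal rhabdomyosarcoma, was hybridised to 1 Affymetrix Human Gene ST array each. In the derivative NpBI-22, doxycycline switches on miR-22. It has 2 arrays from cells kept in 1 µg/ml doxycycline for 6 days (induced) and 2 from untreated cells (non-induced), all described as biological replicates. The derivative NpBI-206AS, an additional control, had 1 induced array after the same treatment and 1 non-induced array. What its construct expresses is not stated in the labels, so doxycycline and any product of that construct cannot be told apart in it. The labels do not say how many clones stand behind either derivative.

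A microRNA is transcribed as a long hairpin-bearing precursor. The Microprocessor, made of the nuclease DROSHA and its partner DGCR8, cuts the hairpin out in the nucleus, exportin 5 (XPO5) carries it to the cytoplasm, and DICER1 with its cofactor TARBP2 trims it to a duplex. An Argonaute protein, encoded by AGO1 to AGO4, keeps 1 strand of the duplex, and TNRC6A (GW182) links the loaded Argonaute to the enzymes that shorten the poly(A) tail of the paired mRNA. A microRNA expressed from an inducible construct normally depends on the same machinery. The arrays read the mRNAs of that machinery, not its proteins or the mature microRNAs. The 2 mature strands of the miR-22 hairpin, as RefSeq lists them on the minus strand of GRCh38.p14, are shown because miR-22 is the microRNA that doxycycline turns on in NpBI-22 cells; capitals mark the seed, bases 2 to 8, through which most target pairing runs.
hsa-miR-22-3p, chr17:1713914-1713935: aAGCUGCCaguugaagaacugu
hsa-miR-22-5p, chr17:1713952-1713973: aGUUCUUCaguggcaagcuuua

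The median log2 value of an array was 5.66 to 5.75. Of 8 markers of the muscle lineage and rhabdomyosarcoma, 7 lay above every array's median on all 6 arrays, and MYF5 alone was low (3.88 to 3.96). All 11 markers of epithelial, blood and endothelial cells lay below the median of every array. MIR22HG, the host gene of miR-22, read 10.02 and 10.01 on the induced NpBI-22 arrays and 6.27 to 6.72 on the other 4. Each array also carries a code in its label. Both induced NpBI-22 arrays have the prefix R715, the first untreated NpBI-22 replicate has R509, and R587 marks the second as well as the pair of NpBI-206AS arrays. The labels do not say what it stands for. Array pairs with a shared prefix correlated at 0.9927 or more over all rows and the others at 0.9866 or less. Induction and prefix cannot be told apart in any comparison with the induced NpBI-22 arrays.

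All 10 genes lay above the highest array median on all 6 arrays, between 6.44 and 9.90. AGO4 was the dimmest of them, at 6.44 to 7.07, and detection calls were not used. None of the 10 varied by 1 log2 unit (2-fold) over the 6 arrays. The median gene of the set ranged over 0.41, against 0.53 for the median of all genes. The comparison of induced with non-induced NpBI-22 cells takes in both doxycycline and miR-22, which cannot be told apart in it. In this comparison limma called 0 of the 10 at an adjusted p under 0.05. Across the array it called 3.6% of 33297 rows. At an unadjusted p under 0.05 there were 3 of 10, against 21.6% of all rows. AGO4 was the 1 on the higher side (10.6% of all rows) and DGCR8 and XPO5 the 2 on the lower side (11% of all rows). The median log2 change was -0.15, beside -0.01 over all rows. For 7 of the 10 the induced and untreated NpBI-22 arrays did not overlap, against 51.1% of all rows. Of these, 2 were higher (25% of all rows) and 5 lower (26%).

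Against all 4 control arrays together, 2 of the 10 passed in limma: AGO4 rose and XPO5 fell. In that comparison 13.7% of all rows passed, 6.32% higher and 7.43% lower, so the count is near the background. At an unadjusted p under 0.05 there were 3 of 10, AGO4 higher and DROSHA and XPO5 lower, against 28% of all rows (13.5% higher and 14.5% lower). Both induced arrays lay outside the range of all 4 controls for 6 of the 10 genes, DICER1 and AGO4 above it and DROSHA, DGCR8, XPO5 and AGO3 below it, against 37.8% of all rows (19.4% above and 18.3% below). The arrays read RNA of whole cultures, so fewer cells of a kind and less RNA per cell cannot be told apart. The median log2 change was -0.12, beside 0.02 over all rows. Both comparisons use the same 2 induced arrays and are not independent of each other.

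**Figure D1:**
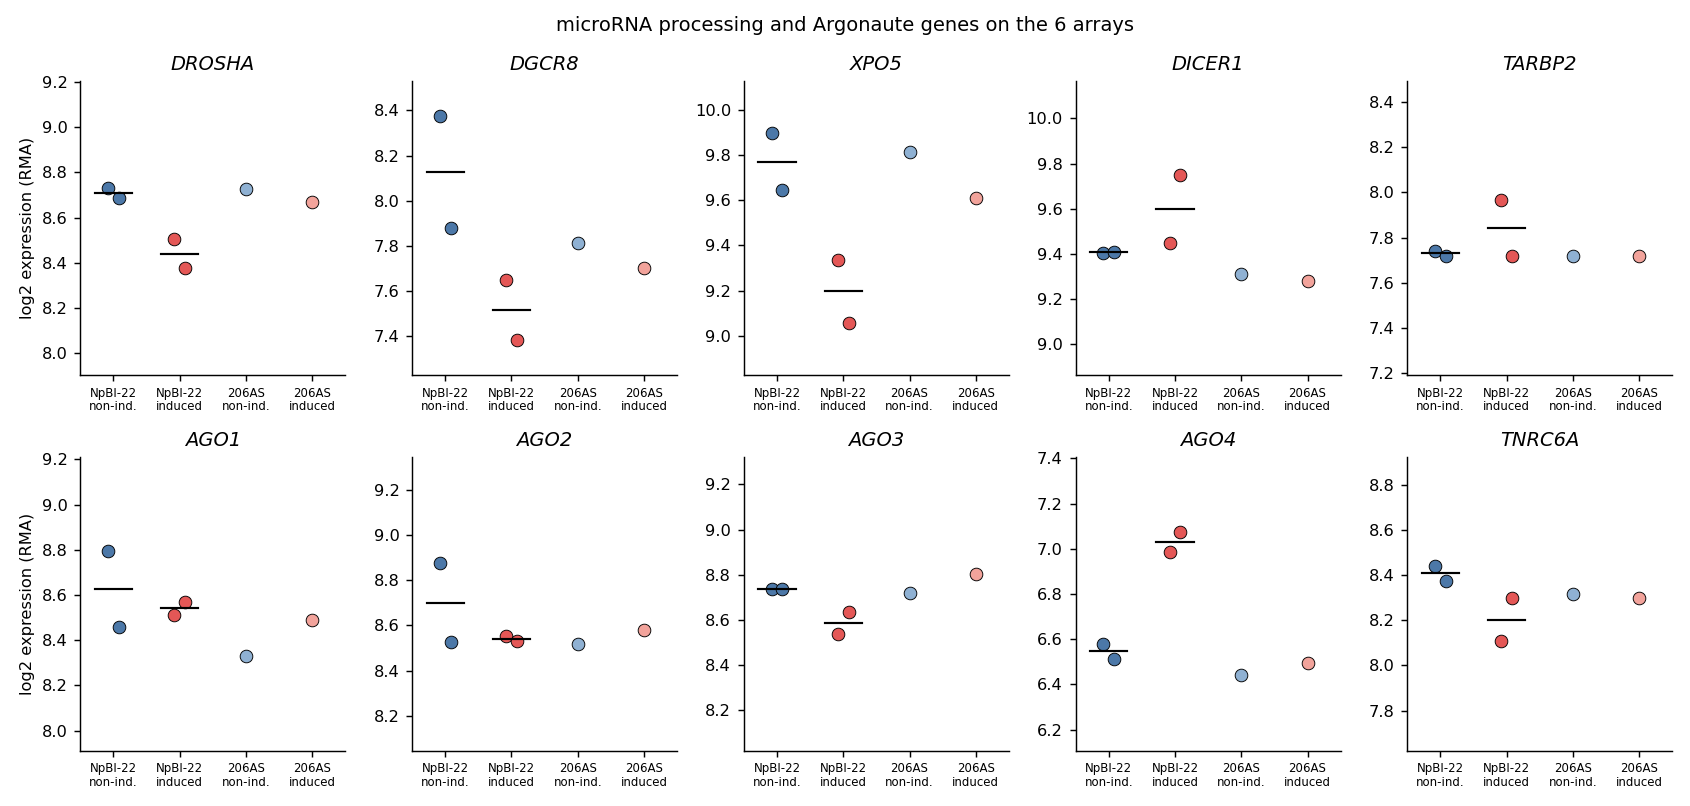
Deposited log2 expression (RMA, vertical axis, a span of 1.3 in every panel) of each of the 10 genes in the 4 groups, with 1 point per array and a line at the mean of the 2 replicates. AGO4 is the gene whose induced NpBI-22 points (6.98 and 7.07) stand clear above a tight set of controls (6.44 to 6.58), and XPO5 and DROSHA are below theirs.

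The 2 genes of the Microprocessor had their lowest readings on the induced NpBI-22 arrays. DROSHA, the nuclease, read 8.51 and 8.37 on those arrays, 8.73 and 8.69 on the non-induced NpBI-22 arrays, and 8.73 and 8.67 on the NpBI-206AS arrays without and with doxycycline. The groups did not overlap, and the 4 controls stayed within a narrow band. Its log2 change was -0.27 against non-induced NpBI-22 cells (SE 0.15, limma adjusted p = 0.38) and -0.26 against all controls (SE 0.106, limma adjusted p = 0.154), so it did not pass in either.

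DGCR8, the RNA-binding partner that positions DROSHA on the hairpin, had the largest difference of the 10 genes in the NpBI-22 comparison, and the loosest controls. It read 7.65 and 7.39 in induced NpBI-22 cells, 8.37 and 7.88 in non-induced NpBI-22 cells, and 7.81 and 7.70 on the NpBI-206AS arrays without and with doxycycline. Non-induced replicate 1 was the highest array by far, and the induced NpBI-206AS array came within 0.06 of the nearer induced NpBI-22 array. The log2 change between the NpBI-22 groups was -0.61 (SE 0.221, 95% interval -1.16 to -0.06, limma adjusted p = 0.190), while the 2 non-induced replicates were themselves 0.50 apart. Without non-induced replicate 1 the change was -0.36, and without replicate 2 it was -0.86. Against the 3 controls of prefix R587 it was -0.28 (SE 0.122, limma adjusted p = 0.149). Those 3 arrays are 1 of each control condition, taken as 1 group.

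XPO5 (array row 8126588), the export receptor for hairpin precursors, fell against all controls by 0.54 on the log2 scale, a 1.46-fold lower level (SE 0.14, limma adjusted p = 0.0412). It read 9.34 and 9.06 in induced NpBI-22 cells, 9.90 and 9.64 in non-induced NpBI-22 cells, and 9.81 and 9.61 on the NpBI-206AS arrays without and with doxycycline. Every control lay above both induced NpBI-22 arrays, with the induced NpBI-206AS array the lowest of the controls. Against non-induced NpBI-22 cells alone the change was -0.57 (SE 0.183, limma adjusted p = 0.149), which did not pass. Against the 3 controls of prefix R587 it was -0.49 (SE 0.128, limma adjusted p = 0.0352). That fit, with 3 conditions taken as 1 group, passed 22.4% of all rows, against 13.7% with all 4 controls. The call against all controls was lost without induced replicate 1 (log2 change -0.68, limma adjusted p = 0.0993), without induced replicate 2 (-0.41, 0.249), without non-induced replicate 2 (-0.58, 0.0784) and with each array centred on its median (-0.485, 0.0562).

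The promoter windows of DGCR8 and XPO5 are given as context for the 2 largest downward differences. Each window is the 250 bases before the gene's start in RefSeq (GRCh38.p14), read 5′ to 3′ on the gene's strand. Capitals mark matches, on either strand, to the GC box GGGCGG and to the CCAAT box.
DGCR8, chr22:20079991-20080240, plus strand: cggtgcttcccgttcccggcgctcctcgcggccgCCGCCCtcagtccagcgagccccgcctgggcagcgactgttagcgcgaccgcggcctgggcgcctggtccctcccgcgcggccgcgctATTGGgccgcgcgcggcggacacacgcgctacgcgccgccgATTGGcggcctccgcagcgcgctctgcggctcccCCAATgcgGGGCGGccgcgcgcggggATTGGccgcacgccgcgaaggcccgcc
XPO5, chr6:43576039-43576288, minus strand: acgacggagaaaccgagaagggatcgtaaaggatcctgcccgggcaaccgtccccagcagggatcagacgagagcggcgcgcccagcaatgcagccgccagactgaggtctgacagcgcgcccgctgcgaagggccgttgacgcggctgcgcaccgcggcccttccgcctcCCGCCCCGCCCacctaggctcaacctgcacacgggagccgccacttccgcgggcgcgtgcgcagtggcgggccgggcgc
The DGCR8 window held 2 GC boxes and 4 CCAAT boxes, and the XPO5 window held 2 GC boxes that overlap by a base and no CCAAT box. Of 35116 windows of this length in the RefSeq table, 42.6% held a GC box and 32.0% a CCAAT box. AGO2 was left out of the motif search. Among the other 9 genes of the set, 8 held a GC box and 6 a CCAAT box. Their windows had a GC content of 58.8% to 80.0%, against a median of 58.0% over all windows. None of the 9 held, on either strand, the TATA box TATAAA (10.7% of all windows), the E-box letters CACGTG (6.3%) or the letters CAGCTG (14.0%), or the E2F-type letters GGCGGGAA (2.7%).

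The genes of the dicing step did not pass in any comparison, and in both the induced replicates were farther apart than the controls. DICER1, the nuclease that cuts the hairpin to a duplex, read 9.45 and 9.75 in induced NpBI-22 cells, 9.40 and 9.41 in non-induced NpBI-22 cells, and 9.31 and 9.28 on the NpBI-206AS arrays without and with doxycycline. Both induced arrays were above all 4 controls, the first by only 0.04. The log2 change was 0.19 against non-induced NpBI-22 cells (SE 0.17, limma adjusted p = 0.594) and 0.25 against all controls (SE 0.126, limma adjusted p = 0.254). TARBP2, whose product binds the double-stranded hairpin beside DICER1, read 7.97 and 7.72 in induced NpBI-22 cells and 7.74 and 7.72 in non-induced ones. It was 7.72 on both NpBI-206AS arrays. Induced replicate 1 alone stood out: without it, the log2 change of 0.11 (SE 0.163, limma adjusted p = 0.764) became -0.01. TARBP2 had the same deposited value to the last digit on the 3 arrays of prefix R587, and AGO3 on the 2 non-induced NpBI-22 arrays. Equal values on some arrays occurred in 7.22% of all rows. For these genes the spread between controls may therefore be understated, which was not tested.

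Among the 4 Argonaute genes only AGO4 was called, and only against all controls; the difference between AGO4 and its relatives was not tested. AGO4 (array row 7900009), an Argonaute that binds small RNAs, rose by 0.52 (SE 0.107, limma adjusted p = 0.019), a 1.44-fold higher level. It read 6.98 and 7.07 in induced NpBI-22 cells, 6.58 and 6.51 in non-induced NpBI-22 cells, and 6.44 and 6.49 on the NpBI-206AS arrays without and with doxycycline. The groups were well separated, with the nearest arrays of each 0.41 apart and the 4 controls within 0.14 of each other. Against non-induced NpBI-22 cells the log2 change was 0.48 (SE 0.148, 95% interval 0.11 to 0.85, limma adjusted p = 0.138). Against the 3 controls of prefix R587 it was 0.55 (SE 0.0975, limma adjusted p = 0.0099), in a fit that passed 22.4% of all rows. Prefix and induction cannot be told apart in it. The call against all controls was lost without induced replicate 1 (log2 change 0.57, limma adjusted p = 0.0980), without induced replicate 2 (0.48, 0.124) and without non-induced replicate 2 (0.52, 0.0583).

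AGO1 and AGO2 lay inside the range of the controls. AGO1, a relative of AGO4 that also represses mRNAs through TNRC6 proteins, read 8.51 and 8.57 in induced NpBI-22 cells, 8.79 and 8.46 in non-induced NpBI-22 cells, and 8.33 and 8.49 on the NpBI-206AS arrays without and with doxycycline. Its log2 change was -0.08 against non-induced NpBI-22 cells (SE 0.177, 95% interval -0.52 to 0.36, limma adjusted p = 0.844). AGO2, the Argonaute that can slice its target, read 8.55 and 8.53 in induced NpBI-22 cells, 8.88 and 8.53 in non-induced NpBI-22 cells, and 8.52 and 8.58 on the NpBI-206AS arrays without and with doxycycline. Its change was -0.16 (SE 0.178, 95% interval -0.60 to 0.28, limma adjusted p = 0.681). For both genes 1 array stood above the remaining 5, non-induced replicate 1, and without it the changes were 0.084 for AGO1 and 0.015 for AGO2.

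AGO3, another Argonaute that loads microRNAs, read slightly lower in induced NpBI-22 cells without passing. It read 8.54 and 8.64 there, 8.74 on each non-induced NpBI-22 array, and 8.72 and 8.80 on the NpBI-206AS arrays without and with doxycycline. All 4 controls lay above both induced arrays, by at least 0.08. The log2 change was -0.15 (SE 0.147, limma adjusted p = 0.637) against non-induced NpBI-22 cells and -0.16 (SE 0.105, limma adjusted p = 0.377) against all controls.

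AGO4, AGO1 and AGO3 are consecutive protein-coding genes on chromosome 1 in RefSeq, with AGO4 first, and AGO2 lies on another chromosome. On these arrays the 3 neighbours had log2 changes of 0.52, 0.02 and -0.16 against all controls. Their promoter windows (250 bases before each start, GRCh38.p14, plus strand) are printed for comparison, with capitals as above.
AGO4, chr1:35807766-35808015, plus strand: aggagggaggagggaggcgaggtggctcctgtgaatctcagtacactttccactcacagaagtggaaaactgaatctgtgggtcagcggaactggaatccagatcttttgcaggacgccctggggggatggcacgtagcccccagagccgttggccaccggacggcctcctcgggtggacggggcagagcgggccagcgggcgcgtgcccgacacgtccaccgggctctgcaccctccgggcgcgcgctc
AGO1, chr1:35882959-35883208, plus strand: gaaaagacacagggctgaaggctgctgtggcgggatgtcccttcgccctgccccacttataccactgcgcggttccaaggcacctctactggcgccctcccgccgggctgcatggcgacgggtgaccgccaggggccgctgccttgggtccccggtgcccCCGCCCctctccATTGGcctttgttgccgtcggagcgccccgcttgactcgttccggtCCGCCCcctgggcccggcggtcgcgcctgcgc
AGO3, chr1:35930855-35931104, plus strand: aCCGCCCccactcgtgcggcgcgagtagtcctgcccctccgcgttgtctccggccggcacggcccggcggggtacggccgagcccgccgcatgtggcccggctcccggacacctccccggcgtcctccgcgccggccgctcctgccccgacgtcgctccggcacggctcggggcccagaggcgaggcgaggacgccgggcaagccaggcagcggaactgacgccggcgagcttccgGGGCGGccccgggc
The AGO4 window held 0 of the 6 motifs searched and had a GC content of 66.4%. The AGO1 window held 2 GC boxes and 1 CCAAT box at 71.6% GC, and the AGO3 window held 2 GC boxes at 80.0% GC. A missing match says only that these letters are not in the window.

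TNRC6A, the scaffold that recruits deadenylases to Argonaute, did not pass. It read 8.11 and 8.30 in induced NpBI-22 cells, 8.44 and 8.38 in non-induced NpBI-22 cells, and 8.32 and 8.30 on the NpBI-206AS arrays without and with doxycycline. Induced replicate 2 was level with the NpBI-206AS arrays and only replicate 1 was below them. The log2 change was -0.21 against non-induced NpBI-22 cells (SE 0.157, limma adjusted p = 0.532) and -0.15 against all controls (SE 0.115, limma adjusted p = 0.443).

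**Figure D2:**
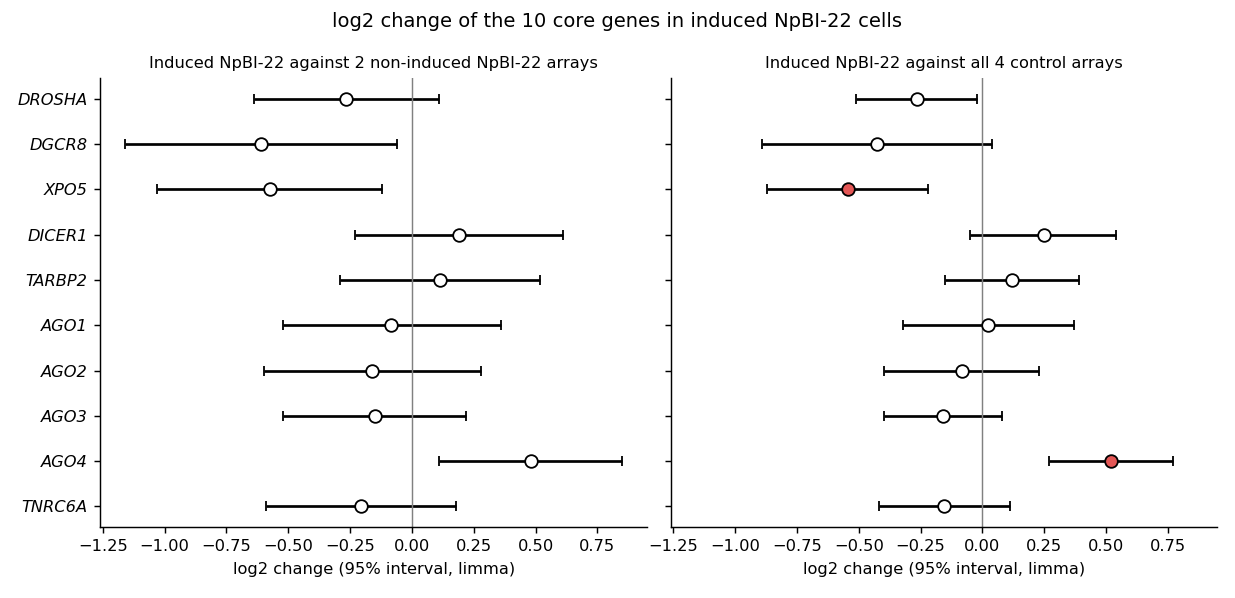
Log2 change of each gene in induced NpBI-22 cells against the 2 non-induced NpBI-22 arrays (left) and against all 4 control arrays (right); points are limma estimates, bars 95% intervals, and filled points an adjusted p under 0.05. No point is filled on the left, and AGO4 (0.52) and XPO5 (-0.54) are filled on the right.

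Ordering the 4 groups by level set induced NpBI-22 cells lowest for DROSHA, DGCR8, XPO5, AGO3 and TNRC6A and highest for DICER1, TARBP2 and AGO4. The step from induced NpBI-22 cells to the next group exceeded the pooled SD of the 2 NpBI-22 groups for DROSHA (0.23 against 0.07), XPO5 (0.41 against 0.19), DICER1 (0.19 against 0.15), AGO3 (0.13 against 0.048) and AGO4 (0.48 against 0.055). That step did not exceed it for DGCR8 (0.19 against 0.28), TNRC6A (0.094 against 0.10) or TARBP2 (0.11 against 0.13). Neighbouring groups of AGO1, AGO2, TARBP2 and TNRC6A were nowhere farther apart than this SD. The SD for AGO3 rests on the equal values named above. The ordering was not made for all rows, so it cannot show whether these genes differ from the rest of the array. Both induced arrays lay outside all 4 controls in 37.8% of all rows.

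The 10 genes read much alike on the NpBI-206AS arrays with and without doxycycline. With 1 array per condition there is no replicate check and no test. The induced minus non-induced difference was largest for XPO5 (-0.20), AGO1 (0.16) and DGCR8 (-0.11). It was 0.09 for AGO3, 0.06 for AGO2, 0.05 for AGO4, -0.06 for DROSHA, -0.03 for DICER1 and -0.02 for TNRC6A. TARBP2 read the same on both arrays. In all 4 were higher, as were 50.5% of all rows, and 5 lower (48.8%). None of the 10 was 2-fold apart, with 0.673% of all rows reaching that, and the median size of the difference was 0.06 beside 0.14 over all rows.

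Whether the NpBI-22 response differed from that of NpBI-206AS cells was tested as an interaction. Limma called 0 of the 10, also at an unadjusted p under 0.05; over all rows it called 0%, with 8.88% at an unadjusted p under 0.05. The largest differences between the responses were -0.50 for DGCR8 (SE 0.383, 95% interval -1.45 to 0.45, limma adjusted p = 0.779), 0.43 for AGO4 (SE 0.257, -0.21 to 1.07, limma adjusted p = 0.698) and -0.37 for XPO5 (SE 0.317, -1.16 to 0.42, limma adjusted p = 0.806). These intervals include 0 and also the whole NpBI-22 change of each gene. MIR22HG, with a difference of 3.62 (SE 0.342) between the responses, did not pass after adjustment either. The 0 of 10 therefore cannot show that the responses were alike.

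With doxycycline on both sides, induced NpBI-22 cells were set against the induced NpBI-206AS array, which was assumed to vary like the replicated groups. Limma called 0 of the 10, and 0.39% of all rows. At an unadjusted p under 0.05 only AGO4 was found, on the higher side, against 15.7% of all rows (7.12% higher). AGO4 was 0.54 higher (SE 0.181, 95% interval 0.08 to 0.99, limma adjusted p = 0.247), about as much as against untreated cells. XPO5 differed by -0.41 (SE 0.224, limma adjusted p = 0.458) and DICER1 by 0.32 (SE 0.208, limma adjusted p = 0.548). DGCR8 differed by -0.19 (SE 0.271, limma adjusted p = 0.819), a smaller value than the -0.61 against untreated NpBI-22 cells.

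The untreated cultures were not alike for all of these genes. Non-induced NpBI-206AS cells read above non-induced NpBI-22 replicate 1 for 0 of the 10, against 44.8% of all rows. They read below it for all 10, by up to 0.56 for DGCR8, 0.47 for AGO1 and 0.36 for AGO2. Against non-induced replicate 2, of the same prefix, the differences ran from -0.13 for AGO1 to 0.17 for XPO5, with 2 of the 10 above 0 (47.1% of all rows). Replicate 1 read above replicate 2 for 8 of the 10 (51.4% of all rows). Replicate 1 was the highest of the 4 control arrays for 8 of the 10 genes, against 39% of all rows. What sets replicate 1 apart was not tested; its prefix is its own.

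**Figure D3:**
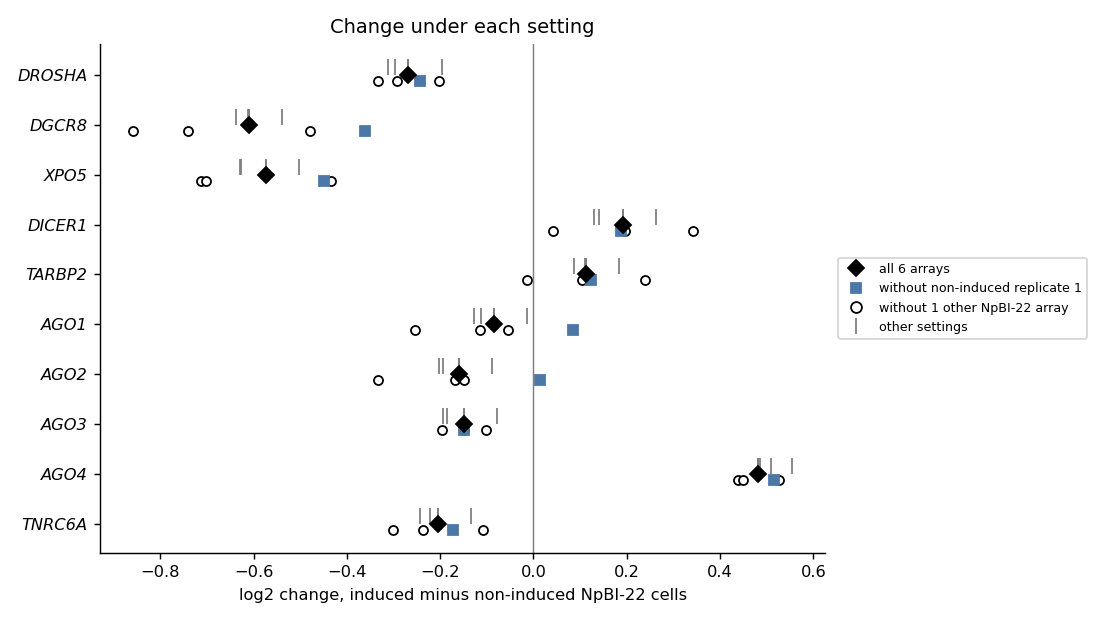
Log2 change of each gene between induced and non-induced NpBI-22 cells (horizontal axis) with all arrays (diamonds), with 1 NpBI-22 array left out (square for non-induced replicate 1, circles for the others) and under the remaining settings (ticks). AGO4 keeps 0.44 to 0.53 and XPO5 -0.71 to -0.44 when an array is left out, while AGO1, AGO2 and TARBP2 cross 0.

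Genes that work with the core were read from 4 lists with 82 genes, of which 78 had a row of their own. In the NpBI-22 comparison limma called 0 of the 78, beside 3.6% of all rows. By an unadjusted p under 0.05, 5 were higher and 8 lower, 16.7% of the 78 beside 21.6% of all rows. Against all controls, an unadjusted p under 0.05 found 7 higher and 20 lower, 34.6% of the 78 beside 28% of all rows. By list that share ran from 11.8% to 44.8%. At an adjusted p under 0.05, 2 rose and 8 fell against all controls, 12.8% of the 78, beside 13.7% of all rows. That count moved with the whole array. It was 0 without induced replicate 1 (2.69% of all rows), 1 without induced replicate 2 (4.48%), 5 without non-induced replicate 2 (7.93%) and 20 without non-induced replicate 1 (22.4%). The median change per list against all controls ran from -0.17 to -0.11. Genes named below that are not the extremes of their list in the NpBI-22 comparison were chosen after their values were seen.

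Of 19 measured partners of nuclear processing, 1 rose and 3 fell against all controls, or 21.1%, beside 13.7% of all rows (6.32% higher and 7.43% lower). LIN28B, which binds the let-7 precursor and blocks its processing, rose by 0.95 (SE 0.175, limma adjusted p = 0.0128). It read 9.14 and 9.51 in induced NpBI-22 cells and 8.06 to 8.54 on the 4 control arrays. Against non-induced NpBI-22 cells its change was 0.81 (limma adjusted p = 0.0740). HNRNPA1, an RNA-binding protein that aids the processing of some hairpins, fell by 0.92 (SE 0.127, limma adjusted p = 0.00484), from 6.52 to 6.82 on the controls to 5.69 and 5.82; the gene has many near-identical processed pseudogenes, and probe sequences were not used here. SAFB2, a nuclear scaffold protein, fell by 0.46 (limma adjusted p = 0.0335) and NCBP3, of the nuclear cap-binding complex, by 0.42 (limma adjusted p = 0.0399). Of these 4 calls, all were lost in at least 1 fit that left out an NpBI-22 array: LIN28B without induced replicate 1 (limma adjusted p = 0.0569) or 2 (0.111), HNRNPA1 without induced replicate 1 (0.0602), and SAFB2 and NCBP3 without either induced replicate or non-induced replicate 2 (0.0843 to 0.210) and with each array centred on its median (0.0550 and 0.0620).

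Of 17 partners in export, dicing and loading, limma called 0 in either comparison, beside 3.6% of all rows against non-induced NpBI-22 cells and 13.7% against all controls. An unadjusted p under 0.05 found 0 against non-induced NpBI-22 cells (21.6% of all rows) and 1 higher and 1 lower against all controls, or 11.8%, beside 28% of all rows. The largest differences against non-induced NpBI-22 cells were those of PTGES3, the HSP90 co-chaperone p23 (0.47, limma adjusted p = 0.290), and the RNA kinase CLP1 (0.28, limma adjusted p = 0.336).

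Of 29 silencing effectors, the proteins that deadenylate, decap or repress a targeted mRNA, 1 rose and 4 fell against all controls, or 17.2%, beside 13.7% of all rows. EDC4, a scaffold of the decapping complex, fell by 0.83 (SE 0.128, limma adjusted p = 0.00703), from 7.88 to 8.15 on the controls to 7.23 and 7.05. EDC3, another activator of decapping, fell by 0.61 (limma adjusted p = 0.0124). GIGYF2 fell by 0.51 and the poly(A)-binding protein gene PABPC1 by 0.47 (limma adjusted p = 0.0307 and 0.0309). EIF4E2, the cap-binding protein that works with GIGYF2 in repression, rose by 0.73 (SE 0.124, limma adjusted p = 0.00974), from 8.98 to 9.26 on the controls to 9.78 and 9.81. All 5 calls were lost when either induced replicate was left out, with limma adjusted p of 0.0503 to 0.211, and those of GIGYF2 and PABPC1 also without non-induced replicate 2 (0.0851 and 0.0816). The close relatives of TNRC6A did not pass: the change against all controls was -0.13 for TNRC6B (limma adjusted p = 0.523) and -0.26 for TNRC6C (0.506).

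Of 13 genes of microRNA tailing and turnover, 1 fell against all controls, or 7.69%, beside 13.7% of all rows. TUT4, which adds uridines to let-7 precursors bound by LIN28 proteins, fell by 0.47 (SE 0.127, limma adjusted p = 0.0475), from 9.20 to 9.42 on the controls to 8.74 and 8.99. Its call was lost without induced replicate 1 (limma adjusted p = 0.298), induced replicate 2 (0.0920) or non-induced replicate 2 (0.115), and with each array centred on its median (0.0794). TENT4B, a poly(A) polymerase that adds tails to some RNAs, had the other large difference in the NpBI-22 comparison, 0.35 (limma adjusted p = 0.552), and only induced replicate 2 was high, at 7.88 against 7.06 to 7.17 on the other 5 arrays.

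**Figure D4:**
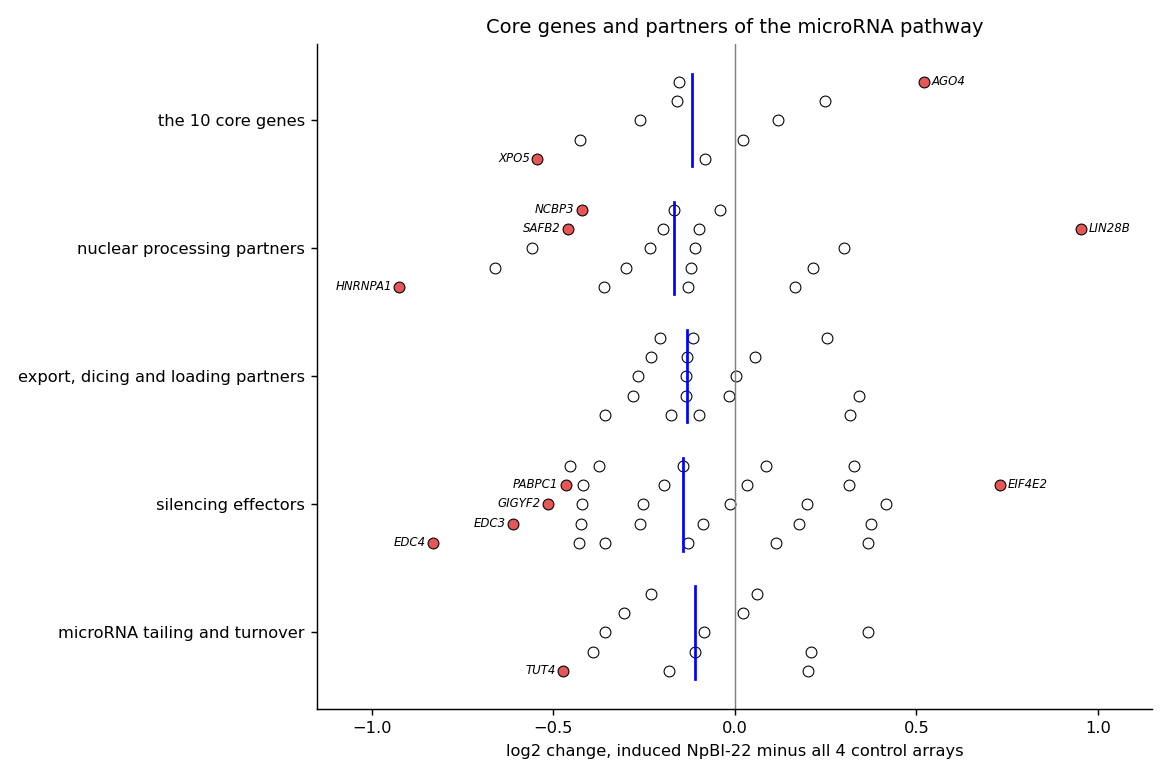
Log2 change in induced NpBI-22 cells against all 4 control arrays for the 10 core genes and the 78 measured partners, with 1 point per gene, filled and named where limma's adjusted p was under 0.05, and a blue line at each list's median. The medians lie between -0.17 and -0.11, and the filled points run from -0.92 for HNRNPA1 to 0.95 for LIN28B.

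The genes whose pattern was most like that of DGCR8, the gene of the set with the largest difference in the NpBI-22 comparison, were sought among 2302 genes that ranged over at least 1 log2 unit. Over the 6 arrays MBOAT1, an acyltransferase gene, followed DGCR8 with Pearson's r = 0.995, the zinc finger gene CASZ1 with r = 0.986 and FOXM1, a transcription factor of the G2 and M phases, with r = 0.983. MBOAT1 read 4.48 to 6.03 and CASZ1 4.82 to 6.15, beside array medians of 5.66 to 5.75. Both lay above the median only on non-induced NpBI-22 replicate 1, so they are dim rows. FOXM1 read 9.45 and 9.32 in induced NpBI-22 cells and 10.49 and 9.87 in non-induced NpBI-22 cells. On the NpBI-206AS arrays without and with doxycycline it read 9.87 and 9.65. These are the closest of many genes over few arrays that share prefixes, and they describe a shape in which non-induced replicate 1 is high and the induced arrays are low.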

How the data were processed

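Total RNA of 6 RD18 cultures was profiled on 1 array each, and the table used here holds 33297 rows. The deposited log2 values are RMA output of the software Partek, per the submitters' processing notes, with no version named. The genome build is not given in the sources used here. RMA subtracts background and makes array distributions alike, which hides a shift shared by all transcripts, and its median polish can return equal values on several arrays. Groups came from the sample titles. The number of arrays limits precision, and p-values rest on the spread between these cultures.

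Rows were named through the platform's annotation, updated by gene ID with RefSeq (GRCh38.p14): 19460 rows had a single symbol, 1754 several and 12083 none, and 19429 gene IDs matched. A gene was its row with the highest mean. Tests used limma 3.58.1 in R 4.3.3, two-sided, with p-values adjusted by Benjamini-Hochberg over the whole table and a threshold of 0.05: a mean per group over 6 arrays, or induced NpBI-22 against the other 4. Models were tested on simulated data. Partners were named if past the threshold in the NpBI-22 comparison (up to 4 a list), otherwise by the 2 largest differences there, and likeness used Pearson's r. The 10 genes and all lists were chosen with earlier results of these data known. Alternatives were other scalings, a filter on dim rows, averaged rows, a variance trend, the replicate block and leaving out arrays; scalings of the single-array differences were added after seeing the data. Promoter windows and microRNAs came from RefSeq; for genes with several starts the first listed was used.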

Additional observations from a re-analysis of the deposited data

Results flagged for a closer look

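DICER1 and AGO3 had differences of opposite sign in NpBI-22 and NpBI-206AS cells, and neither passed the interaction test. DICER1 was higher on both induced than on both non-induced NpBI-22 arrays and lower on the induced NpBI-206AS array, a difference of 0.22 (SE 0.294, limma adjusted p = 0.883). AGO3 was lower on both induced NpBI-22 arrays and higher on the induced NpBI-206AS array, a difference of -0.24 (SE 0.255, limma adjusted p = 0.848). The NpBI-206AS differences behind them were -0.03 and 0.09, each from 1 array per condition, so their signs have no replicate check.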

How the results depend on the processing

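Among single genes, 773 of the alternative values kept their direction and side of the threshold. Of the others, 39 lost a call, 8 gained one and 12 changed sign. Each sign change had a limma adjusted p of 0.766 or more. Not all of the 773 could have moved. In the NpBI-22 comparison, fitting only the 4 NpBI-22 arrays repeats the main fit. Averaging rows leaves a gene with 1 row at its own values. Against all controls, leaving out non-induced replicate 1 and keeping only the controls of prefix R587 are the same fit. For the 10 core genes, the count called against all controls was 2; it was 1 with each array centred on its median and 0 to 2 when an NpBI-22 array was left out. In the other 3 comparisons it was 0 under every alternative run. The interaction called no row of the whole table in any setting, so its 0 says nothing particular to these genes. Fits with an NpBI-22 array left out are no check of the 0 either, because an NpBI-22 group then has 1 array. For the partner lists, the count in the NpBI-22 comparison was 3 with the replicate block and 4 without the dimmest 50 percent of rows, against 0. The whole table also gained calls there, with 2955 of 33297 and 2609 of 16648 rows, against 1200 of 33297. Against all controls the partner count was 6 with the replicate block, 16 without the dim rows and 20 with only the controls of prefix R587, against 10. Over the whole table these settings called 4705 of 33297, 4755 of 16648 and 7463 of 33297 rows, against 4576 of 33297. Centring each array on its median called 4670 of 33297. Partner counts with an array left out are given above with their shares of all rows.

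The replicate numbers of the labels only number the arrays; deviations of same-numbered arrays correlated at 0.196. With the replicate block 2 core genes passed against all controls, DGCR8 (-0.61, limma adjusted p = 0.0358) and XPO5 (-0.57, 0.0420), while AGO4 did not (0.48, 0.0554), and the change of AGO1 turned to -0.085. Among partners the block ended the calls of NCBP3 (limma adjusted p = 0.0786), SAFB2 (0.0792), PABPC1 (0.0652) and TUT4 (0.0806). Without induced replicate 1, TARBP2 turned negative, with ranges over the left-out arrays of -0.013 to 0.238 in the NpBI-22 comparison and in the interaction, -0.008 to 0.243 against all controls and -0.003 to 0.248 against induced NpBI-206AS cells, where TNRC6A turned too (-0.19 to 0.002). Without induced replicate 2, AGO1 turned against all controls (-0.006 to 0.116), as did TENT4B there (-0.035 to 0.77) and in the NpBI-22 comparison (-0.051 to 0.755). Without non-induced replicate 1, AGO1 (-0.254 to 0.084) and AGO2 (-0.334 to 0.015) turned in the NpBI-22 comparison. AGO2 turned to 0.022 against induced NpBI-206AS cells with arrays centred. The cause was not tested. Centring also moved the rows called in the NpBI-22 comparison from 531 higher and 669 lower to 718 and 574. That count of 1200 rows was 2955 with the replicate block, 2609 without dim rows and 0 with any NpBI-22 array left out. Detection calls were not used here, so only the log2 level shows how far a signal stood above background.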
